A study of Homo sapiens with 10 samples.

Results

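The genes described here build the receptors for GABA, the main inhibitory transmitter of the adult brain, or make and break down GABA itself. They were chosen by name: GABRA3, GABRA5, GABRB1 and GABRG3 (subunits of GABA-A receptors), GABBR1 and GABBR2 (the subunits of the GABA-B receptor), GAD1 (GABA synthesis) and ABAT (GABA breakdown). A gene was read from the probe set whose platform annotation gave that gene symbol alone, and from the brightest one where there were several. This gave a value for 7 of the 8 genes, of 14232 named genes on the array. GABRA3 had no probe set of its own. RNA was measured on Affymetrix exon arrays in a human neuroblastoma line, SH-SY5Y, whose cells resemble noradrenergic sympathetic neuroblasts. Stably transfected cells carried either wild-type SOD1 (samples 2, 8, 11, 14 and 17) or SOD1(G93A), the superoxide dismutase mutant of familial amyotrophic lateral sclerosis (samples 3, 9, 12, 15 and 18). All cells grew in serum and in Geneticin, which keeps the transfected DNA. No source used here gives the promoter of the construct, or says whether a line was 1 clone or a pool.

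GABA-A receptors are chloride channels assembled from several subunits around a central pore, most often alpha, beta and gamma. The alpha and beta subunits form the GABA site, and a gamma subunit with an alpha subunit forms the benzodiazepine site. The GABA-B receptor is a G-protein-coupled receptor that works only as a pair of GABBR1 and GABBR2 and acts through inhibitory G proteins. Glutamate decarboxylase, encoded by GAD1, makes GABA from glutamate, and the mitochondrial GABA transaminase, encoded by ABAT, removes it.

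The deposited values are log2 intensities, and a difference is SOD1(G93A) minus wild-type SOD1 on that scale. Array medians lay between 6.26 and 6.34, and arrays correlated at 0.990 to 0.994 within groups and 0.986 to 0.990 between them. SOD1 itself differed by −0.23 (SE 0.07; limma, adjusted p = 0.107). The cell type was checked on 9 measured noradrenergic markers of 12 listed. Their mean level was 8.86 to 8.96 on wild-type and 8.90 to 9.06 on SOD1(G93A) arrays, with DDC and SLC18A2 called higher and GAP43 called lower. The mean of 6 measured Schwann and glial markers was 4.02 to 4.04 against 4.08 to 4.27, with S100B called higher, and that of 8 mesenchymal markers 7.11 to 7.30 against 7.32 to 7.51, with COL3A1, VIM and FN1 called higher and SNAI2 called lower. For comparison, limma called 9.60% of all named genes in either direction, and 21.7% had an unadjusted p under 0.05. Among the markers, 5 of the 9 noradrenergic, 2 of the 6 glial and 7 of the 8 mesenchymal genes had such a p. The part of these marker shifts in the results on GABA genes was not tested. The mean of 6 immune markers was 3.40 to 3.55 against 3.45 to 3.53, and limma called none of them, with 0 at an unadjusted p under 0.05.

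Of the 7 measured genes, GABRG3 fell in the SOD1(G93A) cells and the other 6 did not pass the test. A gene was called when its limma p, adjusted by the Benjamini-Hochberg method over all 22011 probe sets, was 0.05 or less. None of the 7 was called higher, and 1 was called lower. Over all named genes 9.60% were called, 4.03% higher and 5.57% lower, so 1 of 7 is near the background. At an unadjusted p under 0.05, 1 gene was higher (GABBR1) and 1 lower (GABRG3), or 2 of 7 against 21.7% of named genes. In these bulk samples, fewer expressing cells and less RNA per cell cannot be told apart. The median difference of the 7 was −0.054, and that of all named genes −0.0043. None reached the 2-fold change that the labels ask for.

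The promoter stretches of GABRG3 and GABBR1 are shown because these were the 2 genes whose groups did not overlap. Each is the 250 bases before the gene start in RefSeq, build GRCh38.p14, read 5′ to 3′ on the strand of the gene. GABRG3 is at chr15:26970931-26971180 on the plus strand, and GABBR1 at chr6:29628014-29628263 on the minus strand. Capitals mark an E-box (CAGCTG, the site of helix-loop-helix factors) in GABRG3 and a cyclic AMP response element (TGACGTCA, the site of CREB and ATF factors) in GABBR1.
GABRG3: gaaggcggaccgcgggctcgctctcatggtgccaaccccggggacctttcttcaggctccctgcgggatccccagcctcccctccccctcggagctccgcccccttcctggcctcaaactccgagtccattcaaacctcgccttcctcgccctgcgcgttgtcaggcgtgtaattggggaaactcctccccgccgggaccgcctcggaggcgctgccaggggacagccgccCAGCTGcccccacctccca
GABBR1: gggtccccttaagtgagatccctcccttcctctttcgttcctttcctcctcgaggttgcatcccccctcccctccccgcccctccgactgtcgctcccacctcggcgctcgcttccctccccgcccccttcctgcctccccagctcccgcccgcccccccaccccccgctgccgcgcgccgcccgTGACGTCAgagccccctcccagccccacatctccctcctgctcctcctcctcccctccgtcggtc

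The motifs were searched on both strands and chosen after the sequences had been seen, together with the GATA motif AGATAA, which neither stretch held. No matches overlapped each other in these stretches. The same 250-base stretch held TGACGTCA in 1.65% of 35116 RefSeq promoters, CAGCTG in 14.0% and AGATAA in 9.17%. Both stretches were rich in G and C, with 69.6% in GABRG3 and 72.4% in GABBR1 against a median of 58.0%. Each held 20 CpG pairs against a median of 11. Of the 8 genes, 6 had an entry in the promoter table. GABRB1 was the poorest in G and C among those with 1 entry, at 49.2% with 8 CpG pairs, and GABBR2 the richest, at 78.0% with 38. A match is a description of the letters and not evidence of binding.

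**Figure D1:**
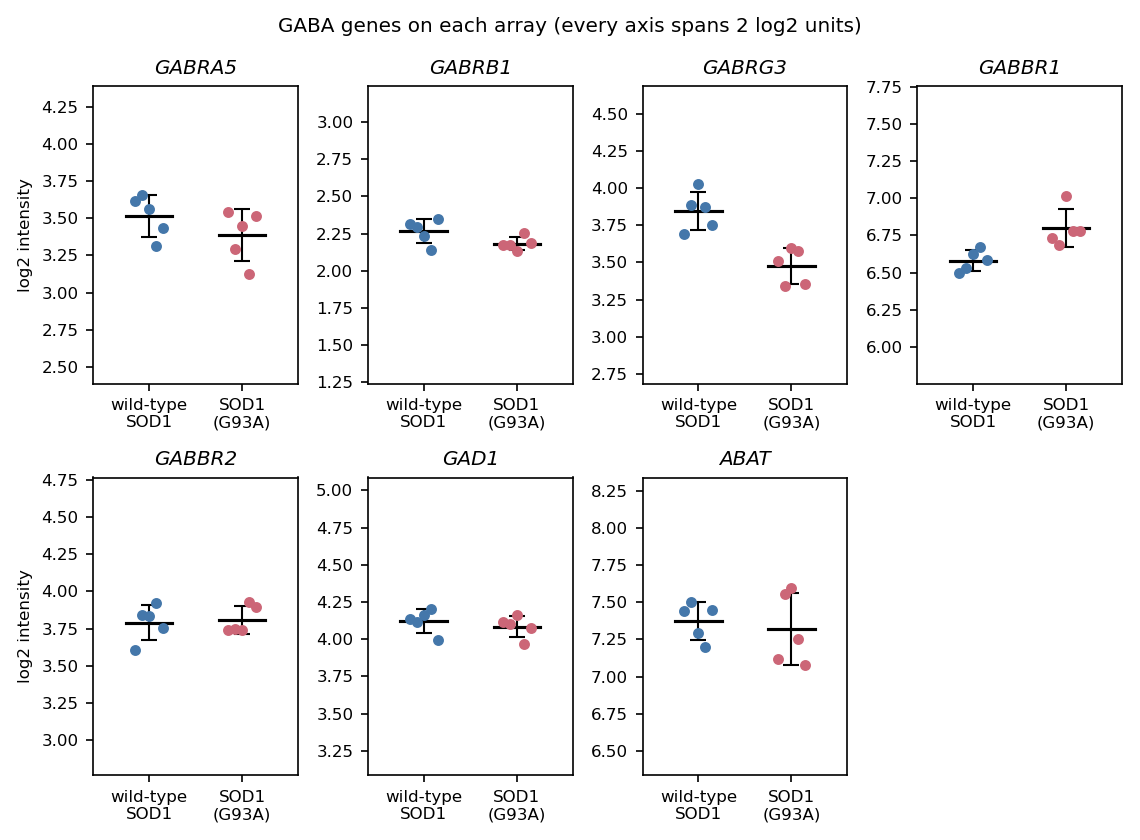
Log2 intensity of the 7 measured GABA genes on each array, with wild-type SOD1 in blue and SOD1(G93A) in red; the line is the mean, the bar is 1 SD (n = 5), and every vertical axis spans 2 log2 units. The groups stand apart in GABRG3 (3.69 to 4.03 against 3.34 to 3.59) and narrowly in GABBR1 (6.50 to 6.67 against 6.68 to 7.01), and overlap in the other 5.

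Among the GABA-A receptor subunits, GABRG3 encodes a gamma subunit. Its levels on the wild-type arrays were 3.69, 3.88, 4.03, 3.87 and 3.75 (samples 2, 8, 11, 14 and 17). On the SOD1(G93A) arrays they were 3.51, 3.34, 3.59, 3.58 and 3.36 (samples 3, 9, 12, 15 and 18). All 5 SOD1(G93A) values lay below all 5 wild-type values, as in 6.49% of named genes. The means were 3.85 ± 0.13 and 3.48 ± 0.12 (SD, n = 5 each), a fall of 0.37 (SE 0.08, 95% interval −0.55 to −0.19; limma, adjusted p = 0.0166), to 77.4% of the wild-type level. The call was kept without any 1 array (adjusted p up to 0.0446) and lost without samples 17 and 18 together (adjusted p = 0.0518). GABRG3 was dim: its mean over all arrays stood above 22.9% of the probe sets, and the lower quartile of the arrays lay between 3.84 and 3.89. Log2 differences are compressed at such levels, and the table carries no detection calls. Among the 2673 named genes below that quartile on every array, 1.91% were called. GABRG3 is not among these only because it exceeded the quartile on some wild-type arrays, the group where it was higher. All 5 of its SOD1(G93A) values, and those of wild-type samples 2 and 17, lay below 3.84. At that level an expressed gene and background signal cannot be told apart.

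GABRA5, the alpha subunit encoded next to GABRG3, read 3.62, 3.65, 3.56, 3.31 and 3.43 on the wild-type arrays. It read 3.54, 3.29, 3.44, 3.12 and 3.52 on the SOD1(G93A) arrays. The groups overlapped. The difference was −0.13 (95% interval −0.35 to 0.08; limma, adjusted p = 0.548).

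GABRB1 encodes a beta subunit. Its wild-type values were 2.31, 2.30, 2.23, 2.14 and 2.35, and its SOD1(G93A) values 2.17, 2.18, 2.13, 2.25 and 2.18. Its groups overlapped too, and its mean stood above only 4.97% of the probe sets. The difference was −0.083 (95% interval −0.20 to 0.04; limma, adjusted p = 0.484). Both GABRA5 and GABRB1 lay below the lower quartile on every array, so an expressed gene and background signal cannot be told apart for them.

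No value is given for GABRA3, an alpha subunit. The 1 probe set annotated to it carries 3 further symbols, MAGEA10, MIR105-1 and MIR105-2. That shared probe set rose from 5.90 ± 0.13 to 6.40 ± 0.12 (SD, n = 5 each; difference 0.50, SE 0.08; limma, adjusted p = 0.00256). MAGEA10, a cancer-testis antigen gene that lies beside it and also has a probe set of its own, rose there by 3.40 (SE 0.09; limma, adjusted p = 9.07e-09). Which of the 4 genes the shared probe set reads in these cells cannot be told apart.

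Of the GABA-B receptor subunits, GABBR1 read 6.50, 6.53, 6.62, 6.67 and 6.58 on the wild-type arrays. On the SOD1(G93A) arrays it read 6.73, 6.68, 7.01, 6.78 and 6.78, with sample 12 the highest. The SOD1(G93A) arrays were all above the wild-type ones, as in 4.95% of named genes, but the gap between the nearest arrays was small. In either direction 11.4% of named genes had no overlap, against 2 of these 7. The means were 6.58 ± 0.07 and 6.80 ± 0.13 (SD, n = 5 each). The difference of 0.22 (SE 0.07, 95% interval 0.06 to 0.37) did not pass the test (limma, adjusted p = 0.0965). Another probe set annotated to GABBR1 also carries the symbol UBD. It read 2.08 ± 0.13 and 2.34 ± 0.29 (SD, n = 5 each; limma, adjusted p = 0.336), with groups that overlapped and sample 12 again the highest, at 2.86. That probe set lay below the lower quartile on every array.

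Its partner GABBR2, without which GABBR1 does not reach the cell surface, read 3.61, 3.84, 3.83, 3.92 and 3.75 on the wild-type arrays. On the SOD1(G93A) arrays it read 3.74, 3.75, 3.74, 3.93 and 3.89. The groups overlapped throughout, near the lower quartile of the probe sets. The GABBR2 mean stood above 24.4% of the probe sets, a level at which an expressed gene and background signal cannot be told apart. The difference was 0.019 (95% interval −0.14 to 0.18; limma, adjusted p = 0.939).

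GAD1, which makes GABA, read 4.13, 4.11, 4.16, 4.21 and 3.995 on the wild-type arrays and 4.12, 4.10, 4.16, 3.97 and 4.07 on the SOD1(G93A) arrays. The groups overlapped, and the difference was −0.037 (95% interval −0.17 to 0.09; limma, adjusted p = 0.829). ABAT, which removes GABA, read 7.44, 7.50, 7.29, 7.20 and 7.45 on the wild-type arrays. Its SOD1(G93A) values of 7.12, 7.55, 7.60, 7.26 and 7.08 spread over more than the whole wild-type range, with an SD of 0.24 against 0.13. The difference was −0.054 (95% interval −0.30 to 0.20; limma, adjusted p = 0.872). GAD1 had the narrower interval of these 2 enzymes, but it was dim. Its mean stood above 27.3% of the probe sets, against 64.7% for ABAT. Log2 differences are compressed at low levels, so the narrower interval does not make an absence of change firmer for GAD1.

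The wider GABA system was read through 6 further lists of 86 genes, of which 65 were measured. Limma called 8 of these lower and 0 higher (12.3%, against 5.57% of named genes called lower and 9.60% called in either direction), and at an unadjusted p under 0.05 the counts were 11 and 3, together 21.5% of the 65 against 21.7% of named genes. The median difference over the 65 genes was −0.053. The 8 called genes were the transporters SLC6A11 and SLC6A12, the cotransporter SLC12A7, the adaptor TRAK1 and the transcription factors DLX5, DLX6, GATA2 and GATA3. Without 1 array at a time the count called lower was 5 to 7, and it was 5 without sample 9, 11 or 14.

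**Figure D2:**
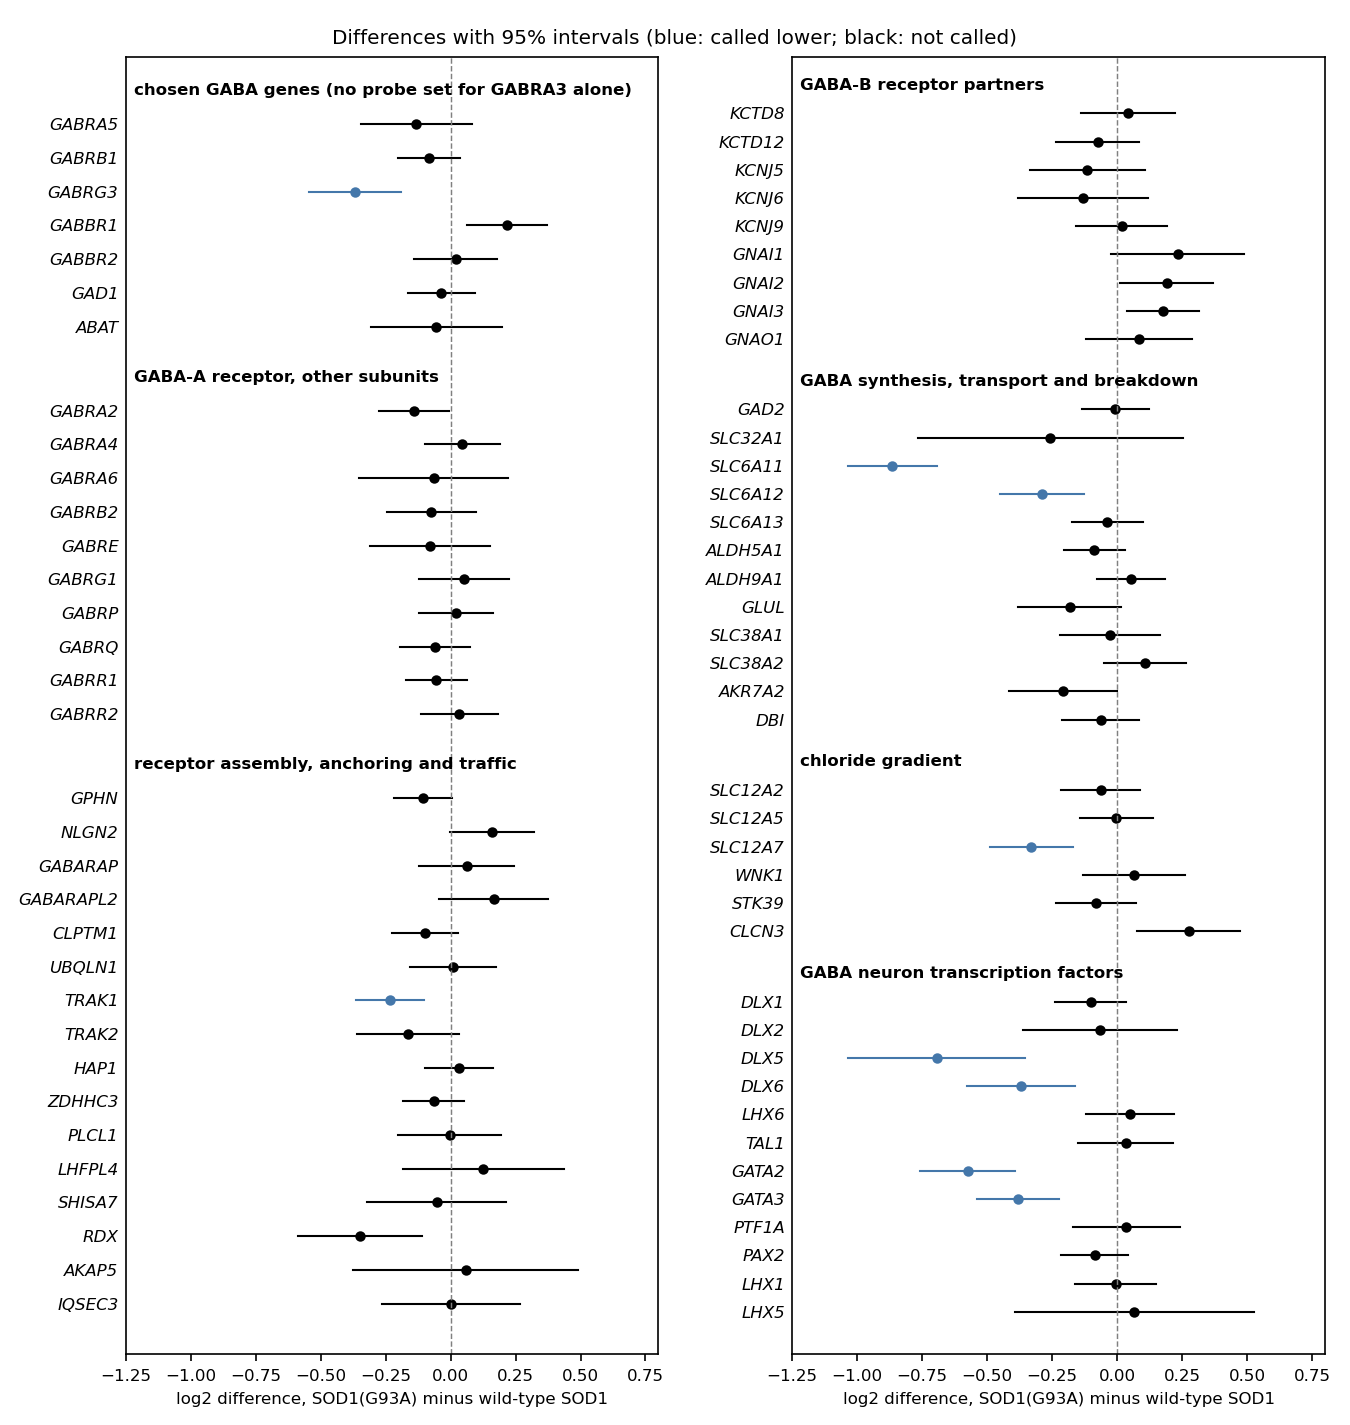
Log2 difference of each measured gene, SOD1(G93A) minus wild-type SOD1, with its 95% interval from limma, for the 7 chosen genes and the 65 genes of the 6 wider lists. Blue marks the 9 genes called lower, with SLC6A11 farthest to the left at −0.86; no gene was called higher.

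None of the 10 other measured GABA-A receptor subunits of 15 listed was called by limma, where 9.60% of named genes were. Of these 10 subunits, 1, GABRA2, had an unadjusted p under 0.05 (21.7% of named genes did). Their differences ran from −0.14 to 0.052, and 8 of the 10 lay below the lower quartile on every array. GABRQ, the theta subunit, was the brightest of these probe sets, at 6.69 ± 0.08 and 6.63 ± 0.08 (SD, n = 5 each; difference −0.058, 95% interval −0.19 to 0.08; limma, adjusted p = 0.707). GABRA2, an alpha subunit and the dimmest of them, read 2.28 ± 0.09 and 2.14 ± 0.08 (SD, n = 5 each; difference −0.14, 95% interval −0.28 to −0.008; limma, adjusted p = 0.235). It was the 1 subunit of the 10 whose groups did not overlap, against 11.4% of named genes. GABRA2 lay below the lower quartile on every array.

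In GABA transport and metabolism, 2 of 12 measured genes fell and 0 rose, beside 5.57% and 4.03% of named genes. SLC6A11, a plasma membrane GABA transporter that in brain sits mainly in astrocytes, read 5.80, 5.77, 5.91, 6.10 and 5.90 on the wild-type arrays. On the SOD1(G93A) arrays it read 4.98, 5.11, 4.99, 4.90 and 5.16. Every SOD1(G93A) array lay below every wild-type array, by a wide gap. It fell by 0.86 (SE 0.08, 95% interval −1.03 to −0.69; limma, adjusted p = 4.04e-05), to 54.9% of the wild-type level, and kept its call without any 1 array (adjusted p up to 0.00025).

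SLC6A12, a betaine and GABA transporter, fell by 0.29 (SE 0.07; limma, adjusted p = 0.0374). Its call was lost without sample 9, 11, 12, 14, 17 or 18 (adjusted p up to 0.0895). The third measured family member, SLC6A13, differed by −0.037 (95% interval −0.17 to 0.10; limma, adjusted p = 0.839). SLC32A1, which loads GABA into vesicles, varied widely, with wild-type values from 3.78 to 4.98 and SOD1(G93A) values from 3.65 to 4.55. Its difference of −0.26 had a 95% interval of −0.77 to 0.25 (limma, adjusted p = 0.647). GAD2, the other decarboxylase gene, differed by −0.0064 (95% interval −0.14 to 0.12), and ALDH5A1, which acts after ABAT, by −0.087 (95% interval −0.20 to 0.03). GAD2 and SLC6A13 lay below the lower quartile on every array, where an expressed gene and background signal cannot be told apart.

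Genes that set the chloride gradient decide which way chloride flows through a GABA-A receptor. Of 6 measured genes, 1 was called lower and 0 higher, beside 5.57% and 4.03% of named genes. This was SLC12A7, a potassium-chloride cotransporter, which went from 6.07 ± 0.10 to 5.74 ± 0.11 (SD, n = 5 each; difference −0.33, SE 0.07; limma, adjusted p = 0.0182). The call was kept without any 1 array (adjusted p up to 0.0498). SLC12A2, which brings chloride into the cell, differed by −0.063 (95% interval −0.21 to 0.09), and SLC12A5, the neuronal chloride exporter, by −0.0023 (95% interval −0.14 to 0.14). SLC12A5 lay below the lower quartile on every array.

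Among 16 measured genes of receptor assembly, anchoring and traffic, 1 was called lower and 0 higher, beside 5.57% and 4.03% of named genes. It was TRAK1, an adaptor of kinesin-driven transport, which fell by 0.23 (SE 0.06; limma, adjusted p = 0.0394). The call was lost without any 1 array other than sample 2 (adjusted p up to 0.0954). GPHN, the gephyrin scaffold that holds GABA-A receptors at synapses, differed by −0.11 (95% interval −0.22 to 0.0047; limma, adjusted p = 0.293). Of 9 measured GABA-B receptor partners none was called by limma, and 2 had an unadjusted p under 0.05 (21.7% of named genes did), both higher. These were the inhibitory G-protein subunits GNAI2 (difference 0.19) and GNAI3 (difference 0.18), with adjusted p of 0.228 and 0.144.

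Of 12 measured transcription factors of GABA neurons, 4 fell and 0 rose, where 5.57% of named genes were called lower and 4.03% higher. GATA2 and GATA3 direct GABA neurons of the midbrain and hindbrain, and in neuroblastoma they belong to the noradrenergic state. GATA2 went from 10.67 ± 0.14 to 10.10 ± 0.12 and GATA3 from 10.32 ± 0.11 to 9.94 ± 0.11 (SD, n = 5 each). The falls were 0.58 (SE 0.08) and 0.38 (SE 0.07), with adjusted p by limma of 0.00131 and 0.00732. DLX5 and DLX6, homeodomain factors of forebrain GABA interneurons encoded side by side, fell by 0.69 (SE 0.15) and 0.37 (SE 0.09), with adjusted p by limma of 0.0186 and 0.0378. The DLX5 call was lost without sample 15 (adjusted p = 0.0523), and the DLX6 call without sample 2, 3, 9, 11, 14 or 15 (adjusted p up to 0.0946). DLX1 and DLX2, the other pair, differed by −0.10 (95% interval −0.24 to 0.04) and −0.065 (95% interval −0.36 to 0.23).

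**Figure D3:**
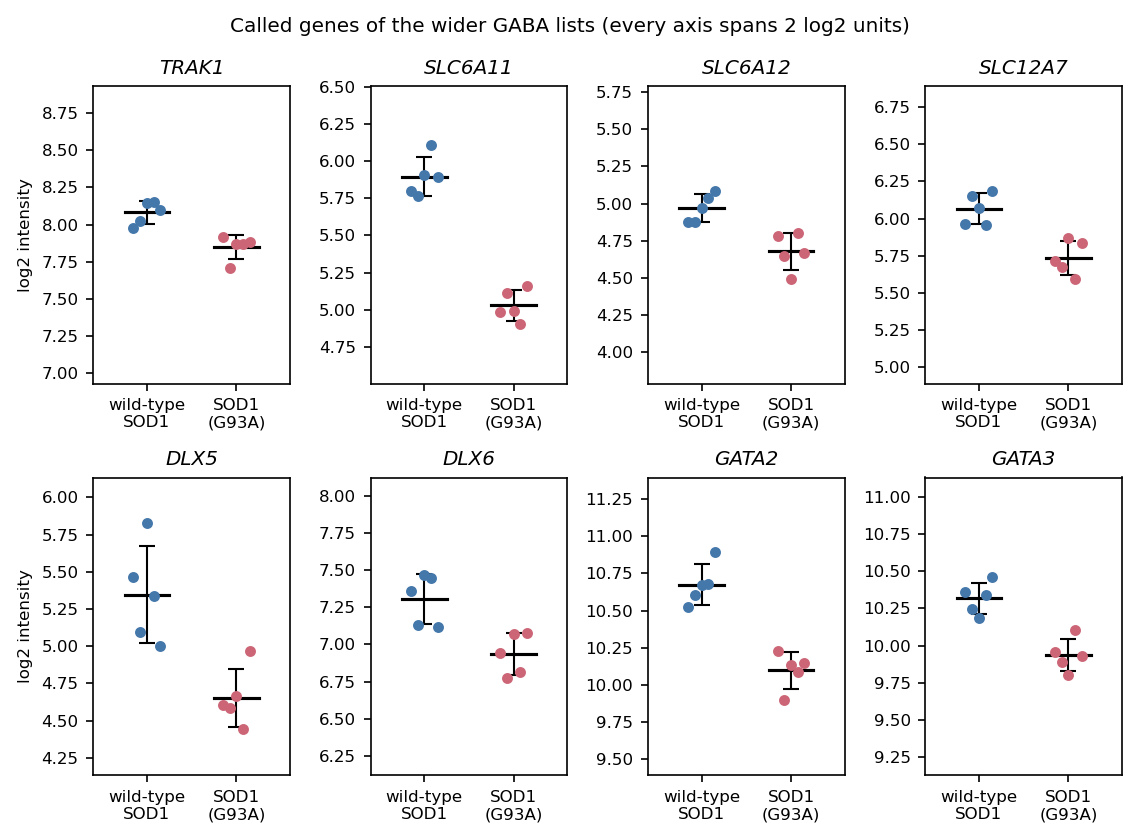
Log2 intensity on each array of the 8 called genes of the wider GABA lists, with wild-type SOD1 in blue and SOD1(G93A) in red; lines are means, bars 1 SD (n = 5), and every vertical axis spans 2 log2 units. No SOD1(G93A) value reaches the wild-type range in any of the 8 genes, and the gap is widest in SLC6A11 (5.16 against 5.77 at the nearest). The genes were picked by their call, which favours such a separation, so it is no further support. Of all 65 measured genes of the lists, 11 had groups that did not overlap, against 11.4% of named genes.

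GABA-A receptor genes lie in clusters, so their chromosomal neighbours were read in the same way, against the 9.60% of named genes that were called and the 11.4% whose groups did not overlap. Around GABRA5 and GABRG3 on chromosome 15, none of 10 measured neighbours from NDN to KLF13 was called by limma. KLF13 was the 1 neighbour with groups that did not overlap (difference 0.14; limma, adjusted p = 0.185). UBE3A, a ubiquitin ligase gene of this region, differed by 0.071 and OCA2, which follows GABRG3, by 0.019. The median difference of these 10 genes was 0.045.

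Around GABRB1 on chromosome 4, 1 of 11 neighbours fell, BEND4, by 0.50 (SE 0.07; limma, adjusted p = 0.00099), and none of the 4 receptor genes there was called. Around GABRE and GABRQ on chromosome X, 3 of 11 neighbours rose and 1 fell. MAGEA10 rose by 3.40, CETN2, a centrin gene, by 0.47 (SE 0.10; adjusted p = 0.0182) and ZNF185 by 0.37 (SE 0.06; adjusted p = 0.00494), while PNMA3 fell by 0.26 (SE 0.07; adjusted p = 0.0462), all by limma. MAGEA10 lies between GABRE and GABRQ, which differed by −0.079 and −0.058 and were not called. The PNMA3 call was lost without any 1 array other than sample 11 (adjusted p up to 0.109) and the CETN2 call without sample 15 (adjusted p = 0.0517).

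**Figure D4:**
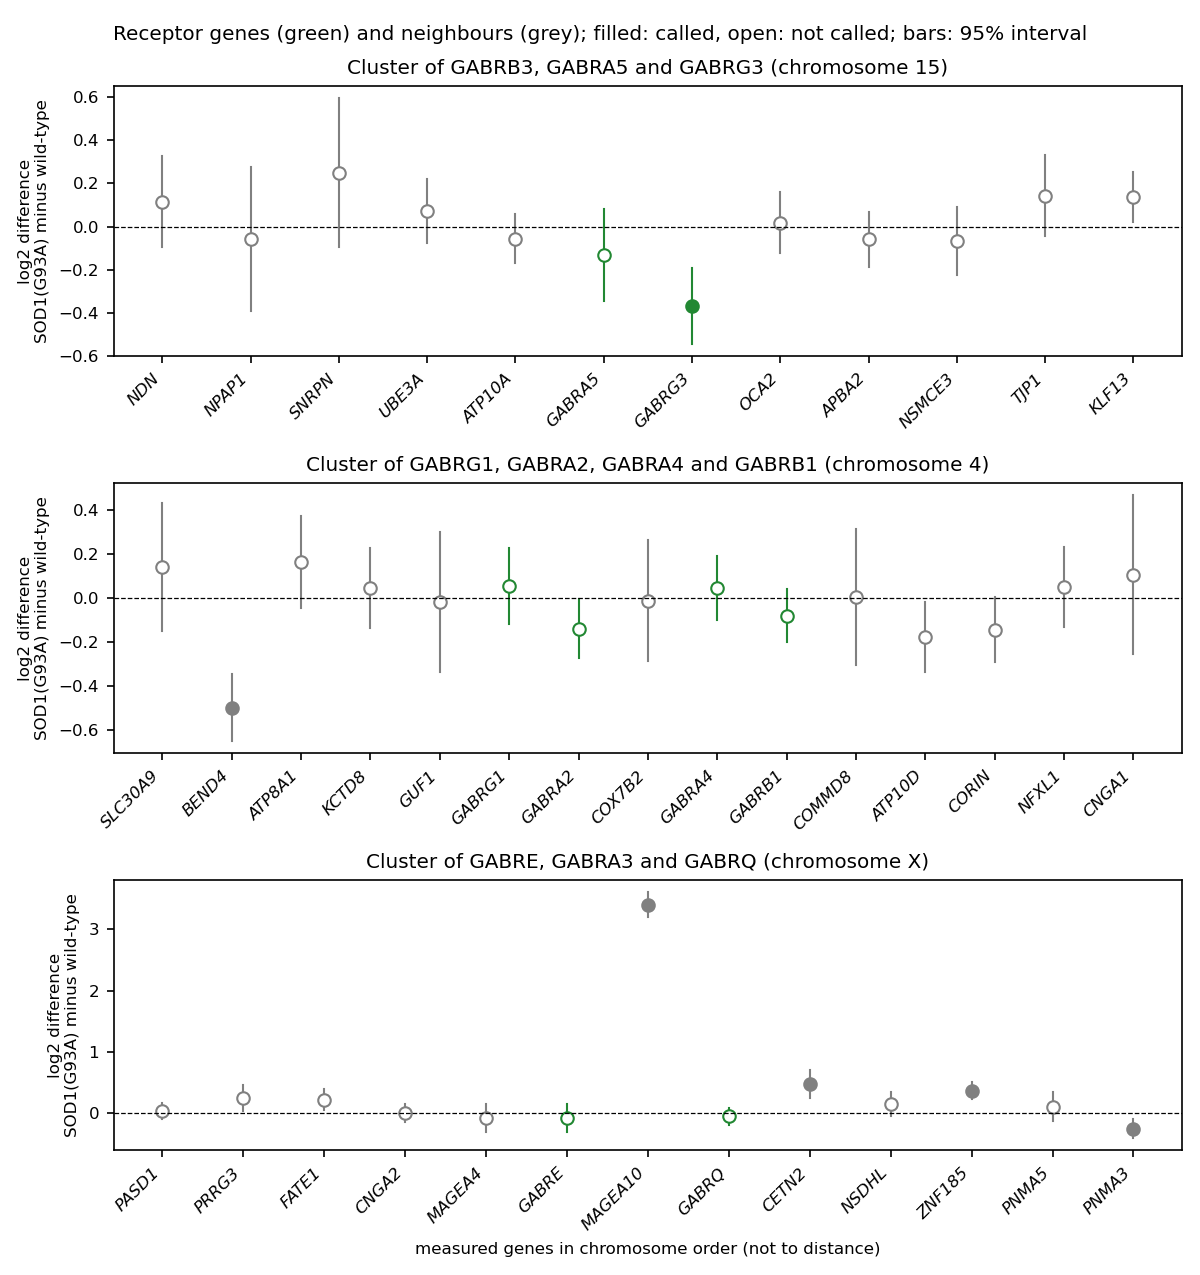
Log2 difference, SOD1(G93A) minus wild-type SOD1, with 95% intervals for GABA-A receptor genes (green) and their nearest measured neighbours (grey) in RefSeq gene order, for the clusters on chromosomes 15, 4 and X; filled points were called by limma, and the vertical scale differs between panels. GABRG3 is the only called receptor gene, and MAGEA10, at 3.40, is the largest difference shown.

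The genes whose pattern over the 10 arrays was most like that of GABRG3 were ADCY8, an adenylyl cyclase gene (Pearson r = 0.968), ETV6, a transcription factor gene (r = 0.965), and CAD, a gene of pyrimidine synthesis (r = 0.954). The 10 points share the division into groups. These 3 genes were picked on the same arrays for likeness to a gene already called lower. The choice itself favours a fall in them, so their adjusted p are no separate support. ADCY8, ETV6 and CAD fell by 0.19, 0.26 and 0.48, with adjusted p by limma of 0.0491, 0.0409 and 0.00281. ADCY8 lay below the lower quartile on every array, where an expressed gene and background signal cannot be told apart. The ADCY8 call was lost without any 1 array other than sample 12 (adjusted p up to 0.117) and the ETV6 call without any array other than sample 2 or 15 (adjusted p at most 0.0953).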

How the data were processed

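The authors' deposited table holds gene-level log2 intensities of 22011 probe sets on 10 arrays. The authors used RMA, per the submitters' processing notes, and oneChannelGUI 1.6.5, per the labels. RMA aligns the arrays by quantile normalization, so a shift of all genes would not be visible. No source used here gives the genome build or filters. Of the probe sets, 14432 had 1 gene symbol, 2408 several and 5171 none; symbols were updated through gene identifiers in RefSeq (GRCh38.p14), where 28 had no match. All probe sets were fitted without a filter in limma 3.58.1 under R 4.3.3 (lmFit, eBayes, 2-sided), a step checked on simulated data. Whether the 5 samples of a group were separate cultures is not stated, so p-values measure only a spread between samples that may be technical. Effects of the construct and other differences between the lines cannot be told apart. The number of arrays limits the precision. The genes, lists and tests were chosen with earlier results of these data known. Named were the chosen genes, called genes of the wider lists, the brightest and dimmest other receptor subunit, cluster neighbours (5 on each side) and the 3 genes most like GABRG3, the 1 chosen gene called. Examples that were not called, and SOD1, were added after their values were seen. Alternatives were a common array median, filters on dim probe sets, an intensity trend, array weights, the labels' 2-fold rule, leaving out each array and, added later, leaving out samples 17 and 18 and a block of consecutive sample numbers.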

Additional observations from a re-analysis of the deposited data

Results flagged for a closer look

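In 5 of 66 groups of 5 arrays checked, over 33 named genes, 1 array stood far from the other 4 by Dixon's test, which flags about 1 in 20 groups by chance. GABRA2 read 2.43 on wild-type sample 8 and 2.22 to 2.26 on the other wild-type arrays. TRAK1 read 7.71 on SOD1(G93A) sample 9 and 7.87 to 7.92 on the others, and its difference without that array was −0.20. BEND4 read 7.44 on SOD1(G93A) sample 18 and 7.23 to 7.28 on the others. MAGEA10 read 5.06 on wild-type sample 17 and 4.70 to 4.79 on the others, and PNMA3 read 5.57 on wild-type sample 11 and 5.79 to 5.88 on the others. None of the 7 measured GABA genes that were chosen by name was among them.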

How the results depend on the processing

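Shifting the arrays to a common median, an intensity trend and array weights changed no call among the 7 genes, and no alternative called any of them higher. The count called lower, 1, became 0 where only probe sets above the lower quartile or above the median were tested, which leaves GABRG3 out, 0 under the labels' 2-fold rule, and 0 without samples 17 and 18, where the GABRG3 difference was −0.36. The sign of 2 small differences turned: GABBR2 was −0.011 and ABAT 0.024 without samples 17 and 18, and without 1 array at a time they ran from −0.027 to 0.051 and from −0.12 to 0.0058. In the wider lists the count called lower was 5 above the median, 0 under the 2-fold rule and 5 to 7 without 1 array, and the count called higher 0 to 1, the 1 being CLCN3 without sample 11 (0.33; limma, adjusted p = 0.0496). The filter above the median left out SLC6A11, SLC6A12, SLC12A7 and DLX5, so these were not tested there, while TRAK1, DLX6, GATA2 and GATA3 kept their calls. RDX was called lower above the median (−0.35) and without sample 15 (−0.42). Over all probe sets 1643 were called, 1274 to 1562 without 1 array and 192 under the 2-fold rule. GABRA3 has no value under any alternative, and each of the other 7 chosen genes had 1 single-symbol probe set. The groups share no sample numbers, and the labels do not say that consecutive numbers (2 and 3, 8 and 9 and so on) belong together; deviations from the group means correlated at −0.034 to 0.14 within these pairs. With them as a replicate block, a fit added after the data were seen, 1213 probe sets were called, GABRG3 stayed called (adjusted p = 0.0313), the other 6 genes were not, and the count called lower in the wider lists was 4. The calls of TRAK1, SLC6A12, DLX5 and DLX6 were lost in that fit (limma, adjusted p = 0.0971, 0.0863, 0.0609 and 0.0711). SLC6A12 also lost its call under array weights (limma, adjusted p = 0.0514), and SLC6A12 and TRAK1 lost theirs without samples 17 and 18 (limma, adjusted p = 0.143 and 0.114).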
